A study of Homo sapiens with 9 samples.

Results

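TC4-2A cells, which make a circular RNA of 4 exons of the spinal muscular atrophy genes, were compared directly with TL4-2A cells, which make a linear RNA of the same exons. The comparison was over genes: of the 60648 genes of the count table, 19473 passed the expression filter and were tested, and 35519 had a count in at least 1 of the 6 libraries. Each line was represented by 3 RNA sequencing libraries, and 3 libraries of the parental T-REx cells, with no insertion, were used to show which of the lines departed from the parent. All 3 lines derive from HEK293 cells, a human embryonic kidney line, and all had been kept in doxycycline (Dox) at 0.1 µg/mL for 96 h, so no difference is one between cells with and without Dox. TC4-2A cells express C2A–2B–3–4 from a Dox-inducible insertion and also make its linear precursor, whereas TL4-2A cells express the linear L2A–2B–3–4. The sources used here do not say whether a line is 1 clone or a pool, or whether its libraries came from separate cultures. The p-values therefore measure the spread between these libraries, and effects of the RNA made cannot be told apart from other differences between the lines.

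SMN1 and its copy SMN2 encode the survival motor neuron protein (SMN), which assembles Sm proteins onto small nuclear RNAs together with the Gemin proteins. Loss of SMN1 causes spinal muscular atrophy, a disease of motor neurons. A circular RNA arises when the end of an exon is joined to the start of an exon upstream, which leaves no free ends, and such RNAs are known to bind proteins and microRNAs and to outlast linear RNAs in the cell.

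The 4 exons are shown because they are what both lines overexpress, and the junction because it alone sets the circle apart. They are given for SMN1, plus strand of GRCh38, and their 546 bases hold 0 differences from the same exons of SMN2. Capitals mark the bases that the study's junction primer spans, at the start of exon 2A and the end of exon 4. Exon 2A lies at chr5:70938839-70938910, exon 2B at chr5:70941389-70941508, exon 3 at chr5:70942358-70942558 and exon 4 at chr5:70942718-70942870, all in the coding part of the gene.
exon 2A: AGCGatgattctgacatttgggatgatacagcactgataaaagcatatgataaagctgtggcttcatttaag
exon 2B: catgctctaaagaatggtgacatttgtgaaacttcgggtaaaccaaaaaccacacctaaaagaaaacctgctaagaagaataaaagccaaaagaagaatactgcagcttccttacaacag
exon 3: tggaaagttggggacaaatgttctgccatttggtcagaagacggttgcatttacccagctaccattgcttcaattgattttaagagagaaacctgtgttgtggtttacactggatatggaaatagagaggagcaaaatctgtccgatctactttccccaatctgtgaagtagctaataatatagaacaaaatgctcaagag
exon 4: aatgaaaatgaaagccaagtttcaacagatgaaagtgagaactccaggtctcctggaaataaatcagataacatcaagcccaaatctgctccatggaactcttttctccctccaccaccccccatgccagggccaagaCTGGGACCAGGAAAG

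In the circle the last base of exon 4 is joined to the first base of exon 2A. The primer of 19 bases that the study used to detect this junction has 15 bases of exon 4 and 4 of exon 2A, and the 30 bases around the junction are given with exon 2A in capitals. Neither sequence was found in the exons joined in linear order, and both were found once the order was closed into a circle. The counts per gene do not record the junction, so reads of the circle, its precursor and the genes' own mRNA cannot be told apart in them. Reads within these exons match SMN1 and SMN2 alike, and how reads matching several genes were counted is not given. Whether reads of the inserted RNA are in the counts is therefore not known.
junction primer: ctgggaccaggaaagAGCG
back-splice junction: ctgggaccaggaaagAGCGATGATTCTGAC

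Total counts per library ranged from 16561680 to 21491977, and TMM scaling factors from 0.991 to 1.01. The level of a gene is given as CPM, its counts in each 1e+06 of the library total, corrected by these factors, and its difference as the fitted log2 of TC4-2A over TL4-2A with a standard error, so that positive values are higher in TC4-2A cells. The median gene varied between libraries of a line by a coefficient of variation of 5.95% in the circular and 6.32% in the linear line. Libraries of a line differed by more than sampling noise, with a chi-square per degree of freedom from 1.71 to 3.93 over pairs. Of 12 markers of HEK293 cells, 12 were tested, none was at 0 in any line, and their summed level was 3828 to 3885 CPM across TC4-2A, 4719 to 4847 across TL4-2A and 3646 to 3682 across T-REx libraries. IRS4 made most of that gap, with 2777, 2837 and 2873 CPM in TC4-2A against 3813, 3668 and 3698 CPM in TL4-2A cells. Markers of blood cells and of hepatocytes summed to no more than 1.09 and 0.73 CPM in any library and none of them was tested. Of 8 fibroblast markers 4 were tested, TWIST2 and PDGFRA were lower in TC4-2A cells, and the summed level was 25.3 to 25.5 CPM against 30.8 to 31.7 in TL4-2A cells, and of the endothelial markers EGFL7 alone was tested. In such bulk samples fewer cells of a kind and less RNA per cell cannot be told apart.

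SMN1 (ENSG00000172062.17, chr5:70925030-70953942, plus strand) was called and SMN2 was not. SMN1 had 75.4, 71.9 and 77 CPM in the TC4-2A libraries, 42.6, 41.3 and 44.1 in the TL4-2A libraries and 36.3, 39.1 and 39.8 in the T-REx libraries, and the difference between the lines was 0.81 ± 0.05 (edgeR's quasi-likelihood test, Benjamini-Hochberg adjusted p = 2.36e-16). SMN2 (ENSG00000205571.14, chr5:70049638-70078522, plus strand) had 19.6, 19.6 and 20.5 CPM in TC4-2A against 19, 20.2 and 20.1 CPM in TL4-2A cells, a difference of 0.01 ± 0.06 with an adjusted p of 0.934. As reads of the 2 genes are hard to tell apart, their sum is safer than the split, though any reads dropped for matching both are missing from it. The sum was 95, 91.6 and 97.5 CPM for the TC4-2A libraries, 61.6, 61.5 and 64.1 for TL4-2A and 53.6, 55.1 and 55.6 in T-REx libraries. The lines did not overlap, at 1.52-fold, and the exact permutation test, 2-sided, gave p = 0.1, the smallest that 3 against 3 libraries allow. The excess of this sum over T-REx cells was thus larger in the line of the circle than in the line of the linear RNA. As the counting of reads from the inserted exons is not known, this excess does not measure how much of either RNA was made.

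The other members of the SMN complex differed less than SMN1 did. Of 10 genes of the complex tested, SMN1 and SMN2 included, 5 (50%) were called higher and 1 (10%) was called lower in TC4-2A. Over all genes tested these shares were 17.6% and 17.8%, and over protein-coding genes 21.5% and 21.1%. The median difference of the 10 genes was 0.11. Besides SMN1 the higher genes were GEMIN2 at 0.22, GEMIN5 at 0.20, GEMIN6 at 0.19 and GEMIN8 at 0.19, Gemin proteins that hold the complex together or bind the small nuclear RNA. GEMIN5, which recognises small nuclear RNAs, had 115, 112 and 112 CPM in the TC4-2A libraries, 98.6, 97.6 and 99.6 in the TL4-2A libraries and 90.5, 92.3 and 95.3 in the T-REx libraries. STRAP (UNRIP), a WD-repeat partner of the complex, was lower at -0.37 ± 0.03, with 182, 171 and 171 CPM in TC4-2A against 223, 221 and 233 CPM in TL4-2A cells. GEMIN4 at -0.03, GEMIN7 at 0.03 and the helicase DDX20 at 0.00 were not called. The number called higher ranged from 3 to 5 over the alternatives: GEMIN2 was not called with DESeq2 or without TC4-2A replicate 2, TC4-2A replicate 3 or TL4-2A replicate 3, nor GEMIN6 without the last. Among 17 Sm and LSm proteins tested, the rings that SMN loads and their relatives, 7 were higher and 1, SNRPD3 at -0.12, was lower, with 4 to 9 higher and 0 to 1 lower over the alternatives and 4 higher with DESeq2 or without TC4-2A replicate 1. The largest differences were LSM6, with 29.2, 25.5 and 26.5 CPM in TC4-2A against 14.2, 15.3 and 16 CPM in TL4-2A cells and a difference of 0.83, and LSM8, at 0.57. Both LSM genes and STRAP lie among neighbouring genes that differed together, described below.

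Of the 19473 genes, 35.4% were called at an adjusted p under 0.05, 17.6% higher and 17.8% lower in TC4-2A cells. Most differences were small. The median difference of all genes tested was 0.00 and the median size 0.17 on the log2 scale, and 764 higher and 837 lower genes passed 1.5-fold. Beyond 2-fold were 2.98% of the genes tested, 1.39% higher and 1.59% lower. Beyond 8-fold were 22 higher and 33 lower genes, and beyond 16-fold 13 and 21. Abundant genes moved little: of 4074 genes with at least 6 log2 CPM, 2074 (50.9%) were called, yet only 2 were more than 2-fold higher and 5 more than 2-fold lower. Among the 271 genes more than 2-fold higher, the libraries of the lines did not overlap for 263, and among the 310 more than 2-fold lower for 297. Picking genes by call and size favours such separation, so these counts add no support. The share over all genes tested is not given here. With only genes of at least 10 counts in every library the numbers beyond 2-fold were 99 and 141.

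**Figure D1:**
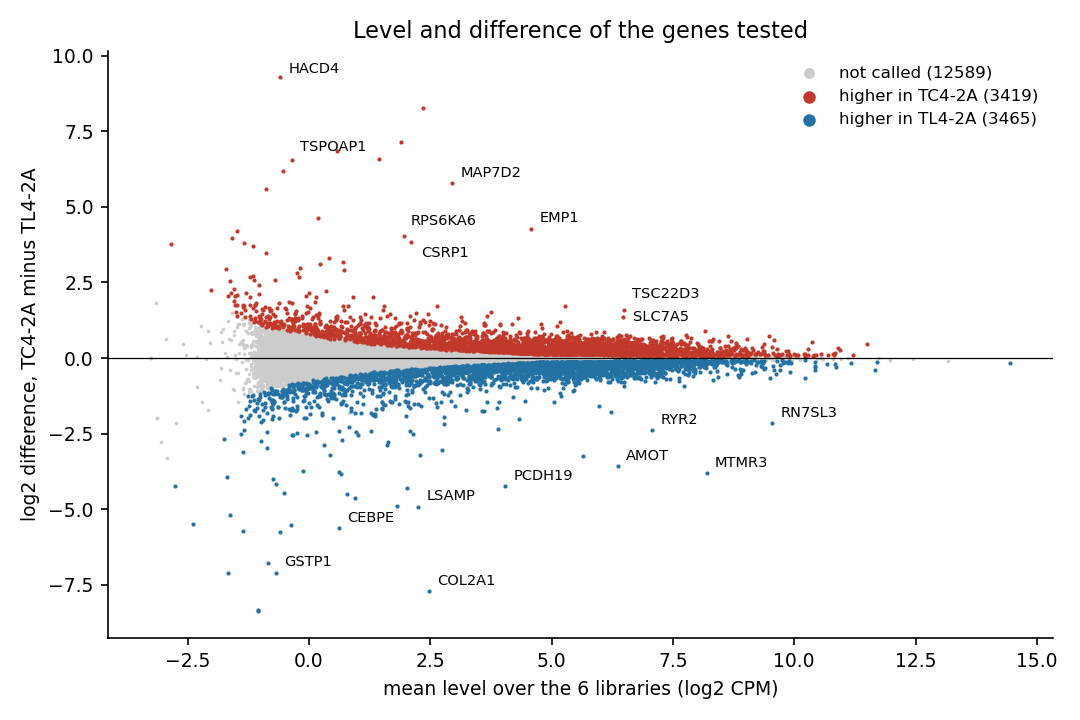
Each point is 1 of the 19473 genes tested, placed by its mean level over the 6 libraries (x axis, log2 CPM) and its log2 difference of TC4-2A minus TL4-2A (y axis), with called genes in red (higher in TC4-2A) and blue (higher in TL4-2A). The spread narrows to the right, MTMR3, RN7SL3, AMOT and RYR2 being the abundant genes that fall clear of it, and the height of a gene with no counts in a line, such as HACD4, depends on the fit.

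The T-REx libraries show which line lay apart from the parent. Of the 271 genes more than 2-fold higher in TC4-2A cells, the T-REx mean lay nearer TC4-2A for 221 (81.5%) and nearer TL4-2A for 50. In 127 of them T-REx lay within 0.25 of the difference from TC4-2A, in 51 it was beyond TC4-2A, and in 25 within 0.25 from TL4-2A. The 310 genes more than 2-fold lower were divided more evenly, with T-REx nearer TL4-2A for 164 (52.9%) and nearer TC4-2A for 146. So most genes more than 2-fold higher in the circular line had the parent on the circular side. These positions are a description, since both lines are set against the same T-REx libraries.

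The protein-coding gene with the largest difference in favour of TC4-2A cells among genes averaging at least 1 log2 CPM was MAP7D2, which binds microtubules. It had 55.8, 56.8 and 52.9 CPM in the TC4-2A libraries, 0.908, 0.856 and 1.22 in the TL4-2A libraries and 49.3, 46.2 and 46.5 in the T-REx libraries, at 5.79 ± 0.10 (edgeR quasi-likelihood adjusted p = 1.56e-34). The TL4-2A libraries alone were low. EMP1 (ENSG00000134531.10, chr12:13196723-13219941, plus strand), an epithelial membrane protein, had 107, 103 and 101 CPM in the TC4-2A libraries, 5.33, 5.08 and 5.67 in the TL4-2A libraries and 4.61, 3.99 and 4.33 in the T-REx libraries and a difference of 4.28 ± 0.06. Here the TC4-2A libraries alone were high. RPS6KA6 (chrX:84058346-84206356, minus strand), the kinase RSK4, had 13.9, 15.5 and 16.1 CPM in the TC4-2A libraries, 1.21, 0.802 and 0.731 in the TL4-2A libraries and 22, 20.2 and 23.6 in the T-REx libraries, with the TL4-2A libraries low. CSRP1 (chr1:201483530-201509456, minus strand), a LIM protein of the actin cytoskeleton, had 17.1, 14 and 15.6 CPM in the TC4-2A libraries, 1.21, 0.856 and 1.22 in the TL4-2A libraries and 14.1, 14.4 and 11.7 in the T-REx libraries, with the same line low. The differences of RPS6KA6 and CSRP1 were 4.05 ± 0.15 and 3.83 ± 0.15.

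EEF1A2, a tissue-specific form of the elongation factor that brings aminoacyl-tRNA to the ribosome, had 71.5, 67.6 and 70 CPM in the TC4-2A libraries, 20, 21.7 and 21.9 in the TL4-2A libraries and 62.6, 65.6 and 61.6 in the T-REx libraries. TSC22D3 (GILZ), a glucocorticoid-induced leucine zipper protein, had 152, 155 and 160.0 CPM in the TC4-2A libraries, 51.2, 54 and 49.7 in the TL4-2A libraries and 123, 121 and 115 in the T-REx libraries. In both genes TL4-2A was the low line, and T-REx was a little under TC4-2A. SPARC, a matrix glycoprotein that binds collagen, had 9.54, 11.3 and 12.9 CPM in the TC4-2A libraries, 2.85, 4.28 and 3.05 in the TL4-2A libraries and 23, 24.1 and 23.2 in the T-REx libraries, so that both lines were below the parent and TL4-2A the more so. GSAP at 2.01, the chromatin remodeller CHD5 at 1.58, the interferon-induced IFITM2 at 1.48, the proteoglycan CSPG4 at 1.44 and CCDC102B at 1.44 complete the 12 highest. In 11 of these 12 genes the TL4-2A libraries were below T-REx, EMP1 being the exception.

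Among genes averaging at least 1 log2 CPM, the protein-coding gene farthest the other way was COL2A1, the chain of type II collagen of cartilage. It had 0.25, 0.285 and 0.484 CPM in the TC4-2A libraries, 73.8, 69.8 and 70 in the TL4-2A libraries and 23.6, 23.6 and 23.5 in the T-REx libraries, a difference of -7.70 ± 0.10 (edgeR quasi-likelihood adjusted p = 1.23e-37). The parent stood between the lines, low in TC4-2A and high in TL4-2A. LSAMP (ENSG00000185565.12, chr3:115802374-117139389, minus strand), a limbic system adhesion molecule of the immunoglobulin family, had 0.749, 1.04 and 0.645 CPM in the TC4-2A libraries, 24.5, 23.6 and 26.3 in the TL4-2A libraries and 1.59, 0.927 and 1.46 in the T-REx libraries and a difference of -4.91 ± 0.14. Only the TL4-2A libraries were high. RPRM, a p53-induced inhibitor of the cell cycle, had 0.799, 0.38 and 0.645 CPM in the TC4-2A libraries, 16.3, 20.8 and 16.7 in the TL4-2A libraries and 4.67, 5.75 and 5.22 in the T-REx libraries. All 3 lines stood apart, with TC4-2A lowest. PCDH19 (chrX:100291644-100410273, minus strand), a protocadherin of nerve cell contacts, had 3.80, 3.85 and 3.55 CPM in the TC4-2A libraries, 72.7, 68.6 and 69.5 in the TL4-2A libraries and 59.6, 60.4 and 61.7 in the T-REx libraries and a difference of -4.23 ± 0.07. Only the TC4-2A libraries were low.

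MTMR3, a phosphatase of phosphoinositides, was the gene with the smallest p-value of the comparison. It had 80, 76.9 and 77.9 CPM in the TC4-2A libraries, 1136, 1102 and 1047 in the TL4-2A libraries and 73.9, 67.9 and 66.5 in the T-REx libraries, a difference of -3.81 ± 0.04 (edgeR quasi-likelihood adjusted p = 1.12e-42). TL4-2A alone was high. AMOT (chrX:112774503-112840831, minus strand), angiomotin, a regulator of the Hippo pathway at cell junctions, had 23.5, 24.3 and 23.3 CPM in the TC4-2A libraries, 287, 279.9 and 282 in the TL4-2A libraries and 231, 223 and 219.6 in the T-REx libraries. TC4-2A alone was low. The other 6 of the 12 lowest were the zinc finger gene TSHZ2 at -3.22, the lipid transporter ABCA8 at -3.03, the histamine methyltransferase HNMT at -2.86, FER1L5 at -2.76, TRANK1 at -2.53 and ZNF90 at -2.52. TSHZ2 had 1.45, 1.61 and 1.56 CPM in the TC4-2A libraries, 13.2, 14.9 and 15 in the TL4-2A libraries and 27.6, 26.2 and 27.1 in the T-REx libraries, so both lines were under the parent.

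**Figure D2:**
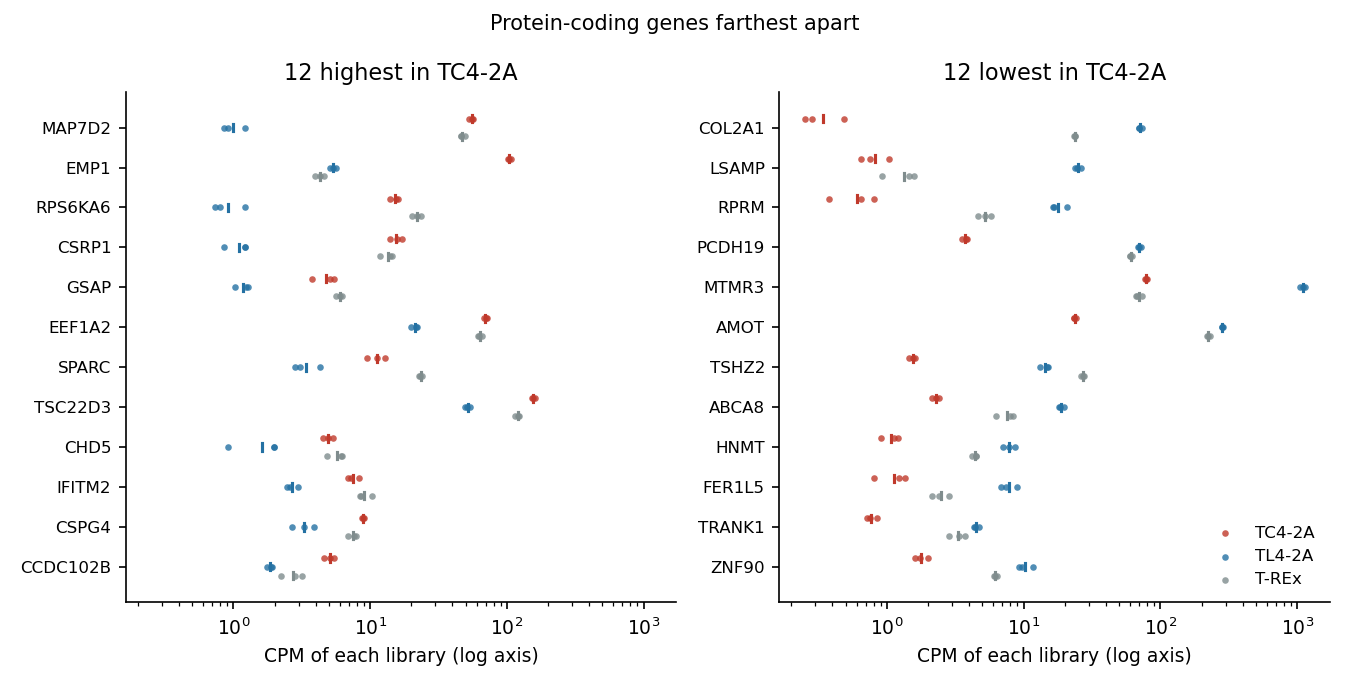
Level of each library (points, CPM on a log axis) and mean of each line (bars) for the 12 protein-coding genes highest and the 12 lowest in TC4-2A against TL4-2A cells, with at least 1 log2 CPM on average and no overlap between those lines. In the left panel the T-REx points lie mostly with TC4-2A, EMP1 excepted, and in the right panel they lie with TC4-2A for MTMR3, with TL4-2A for PCDH19 and AMOT, and between for COL2A1.

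Among abundant genes, those of at least 6 log2 CPM, the highest were TSC22D3 and SLC7A5, a transporter of leucine and other large neutral amino acids. SLC7A5 (chr16:87830023-87869507, minus strand) had 142, 140.5 and 139 CPM in the TC4-2A libraries, 52.5, 56 and 57 in the TL4-2A libraries and 129, 121 and 117 in the T-REx libraries and a difference of 1.35 ± 0.04 (edgeR quasi-likelihood adjusted p = 4.13e-25). The heat shock protein HSPA1B followed at 0.89, with 389, 396 and 380.4 CPM in the TC4-2A libraries, 211, 202 and 218 in the TL4-2A libraries and 302, 314 and 317 in the T-REx libraries, although its reads are hard to assign against its near-identical copy HSPA1A, at 1.01. The stress-responsive NDRG1 at 0.86, the protease inhibitor SPINT2 at 0.77, NAE1 of neddylation at 0.77, the ribonucleotide reductase subunit RRM2 at 0.76 and the telomere protein TERF2IP at 0.74 were the rest of the 8. NDRG1 had 89.3, 91.4 and 92.1 CPM in the TC4-2A libraries, 49.7, 47.9 and 53.1 in the TL4-2A libraries and 153, 144 and 139 in the T-REx libraries. SPINT2 had 126, 121 and 117 CPM in the TC4-2A libraries, 71.6, 71.8 and 69.6 in the TL4-2A libraries and 186, 177 and 176 in the T-REx libraries. In both genes the lines were below the parent and TC4-2A was the nearer.

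Lowest among abundant genes, after MTMR3 and AMOT, was RYR2, the calcium release channel of the endoplasmic reticulum best known from the heart. It had 56.4, 61.4 and 57.9 CPM in the TC4-2A libraries, 314, 296 and 311 in the TL4-2A libraries and 194, 177 and 182 in the T-REx libraries, a difference of -2.39 ± 0.04. Next were RN7SL3 at -2.15, a copy of the RNA of the signal recognition particle that other copies closely match, and BCYRN1 at -1.80, a small cytoplasmic RNA. RN7SL3 had 376, 346 and 346 CPM in the TC4-2A libraries, 1496, 1592 and 1660.2 in the TL4-2A libraries and 1027, 1100.3 and 1201 in the T-REx libraries, and as its reads can belong to other copies its level is uncertain. DOCK1, an activator of Rac, was at -0.93. FN1, fibronectin of the matrix, had 153, 155 and 154 CPM in the TC4-2A libraries, 296, 287 and 291 in the TL4-2A libraries and 180.3, 173 and 171 in the T-REx libraries and a difference of -0.92 ± 0.03. TTN-AS1 was at -0.80, and since the strand setting of the counting is not given, its reads and those of TTN cannot be told apart.

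In all, 10 genes were near silent in one line, with under 0.3 CPM on average, and above 3 CPM in the other. CEBPE, a transcription factor of granulocytes, had 10 counts over the 3 TC4-2A libraries against 445 over the TL4-2A libraries and 2610 over the T-REx libraries. The ratio of the lines was 51.5-fold (95% exact interval 27.7 to 108, which like the other intervals covers counting error only). GSTP1, a glutathione transferase, had 1 count against 164, or 190-fold (33.6 to 7535), with 336 in T-REx cells. SLC7A3, a transporter of cationic amino acids, had 3 against 156, or 60.1-fold (20.2 to 295), with 246 in T-REx cells. The histone gene H3C7 had 4 against 176, or 50.9-fold (19.5 to 189), with 66 in T-REx cells. In these 4 genes TC4-2A was the silent line, and T-REx was not silent in any.

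The other 6 were at or near 0 in TL4-2A cells. HACD4, an enzyme of very long chain fatty acid synthesis, had 243 counts in TC4-2A and 219 in T-REx cells and 0 in TL4-2A cells. Against a floor of 3 counts over the line, 0.0581 CPM, it was at least 70.1-fold higher in TC4-2A cells. TSPOAP1 had 254 counts in TC4-2A, 237 in T-REx and 2 in TL4-2A cells, a ratio of 110-fold (30.1 to 912). TRIM71, a repressor of mRNAs in early embryos, had 296, 252 and 10, a ratio of 25.6-fold (13.7 to 53.9). The last 3 were short entries near each other on chromosome 21, of the biotype given to transcripts that still await experimental checks, and they may share reads. ENSG00000286032 had 1350 counts in TC4-2A, 12 in TL4-2A and 14 in T-REx cells. ENSG00000286146 had 705, 5 and 2, and ENSG00000286252 had 198, 2 and 1. These 3 were thus high in TC4-2A cells alone, whereas HACD4, TSPOAP1 and TRIM71 were near silent in TL4-2A cells alone.

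Of 3518 long noncoding RNAs tested 726 (20.6%) were called, 356 higher and 370 lower, against 35.4% called over all genes tested. Among those averaging at least 1 log2 CPM whose lines did not overlap, the 5 highest were ENSG00000277693 at 1.71, ENSG00000286932 at 1.36, SCOC-AS1 at 1.34, ID2-AS1 at 1.26 and KDM7A-DT at 1.17. Under the same limits the lowest was LINC00632 (chrX:140709562-140793215, plus strand), whose locus is known as the source of a circular RNA of brain, with 15.9, 16.7 and 16.3 CPM in the TC4-2A libraries, 149.7, 147 and 159 in the TL4-2A libraries and 19.8, 22.7 and 22.3 in the T-REx libraries and a difference of -3.22 ± 0.05. Only the TL4-2A libraries were high. MIR222HG, the host gene of microRNAs 221 and 222, had 8.24, 8.64 and 7.84 CPM in the TC4-2A libraries, 26.9, 24.8 and 25.5 in the TL4-2A libraries and 3.92, 3.80 and 4.23 in the T-REx libraries, so both lines were above the parent. ENSG00000269902 at -1.69 lies within MIR222HG and may share its reads, and LINC02641 at -1.53 and IRS4-AS1 at -1.44 complete the 5 lowest. IRS4-AS1 overlaps IRS4, so that without a stated strand setting their reads cannot be told apart.

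Genes that are neighbours on a chromosome often differed by a similar amount. In bins of 20 Mb with at least 20 genes tested, 156 in all, runs of neighbouring bins with a median beyond 0.2 in either direction formed 11 stretches, a limit set after the values were seen. The stretches held 2302 genes (11.8% of those tested), of which 1531 (66.5%) were called, 908 higher and 623 lower. Outside them 5353 of 17171 genes (31.2%) were called, 2511 higher and 2842 lower. The median size of a difference was 0.44 on the log2 scale inside and 0.15 outside. Of the genes beyond 2-fold, 144 (24.8%) were inside. The stretches were picked by the median difference in these same data. Higher shares and larger sizes inside them therefore follow from that choice and are a description only. What neighbouring genes share that could set them apart together was not tested.

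The longest stretch was chromosome 2 from 140 to 260 Mb, where 386 of 532 genes were lower and 5 higher on the TC4-2A side, at a median of -0.49. The medians against T-REx cells were 0.00 for TC4-2A and 0.48 for TL4-2A, so TL4-2A cells held the departure. Genes of its outer bins included RIF1 of DNA break repair at -0.53, the kinesin KIF5C at -0.79, HDLBP at -0.64 and the axonal kinesin KIF1A at -0.71. FN1, RPRM and the HOXD genes also lie there. Chromosome 12 from 0 to 20 Mb, with STRAP and LRP6, had a median of -0.42 (141 of 199 lower) and TL4-2A at 0.37 over T-REx. Chromosome 10 from 120 to 140 Mb had a median of -0.53 (60 of 76 lower), here with TC4-2A at -0.52 against T-REx. MKI67, the proliferation antigen, had 928, 971 and 943 CPM in the TC4-2A libraries, 1509, 1459 and 1523 in the TL4-2A libraries and 1519, 1461 and 1448 in the T-REx libraries, and the mitotic checkpoint gene BUB3 was at -0.47 and BCCIP at -0.51.

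Higher in TC4-2A cells were chromosome 4 from 140 to 160 Mb, with a median of 0.62 and 61 of 80 genes called higher, and chromosome 2 from 0 to 20 Mb, with 0.53. On chromosome 4 no gene was called lower by edgeR's quasi-likelihood test, 0 were lower at an unadjusted p under 0.05 and 0 by DESeq2, and TC4-2A stood 0.54 over T-REx. ABCE1, which recycles ribosomes, was at 0.63, LRBA at 0.62 and the chromatin remodeller SMARCA5 at 0.51. On chromosome 2 from 0 to 20 Mb TL4-2A stood 0.52 under T-REx, and YWHAQ was at 0.58, while DDX1 at -0.05 was not called. Chromosome 16 from 60 to 100 Mb had a median of 0.48 (211 of 325 higher, 4 lower), with TL4-2A at -0.45. It holds SLC7A5, NAE1, TERF2IP, the splicing factor SF3B3 with 906, 917 and 936 CPM in TC4-2A against 554, 555 and 556 CPM in TL4-2A cells, the alanyl-tRNA synthetase AARS1 at 0.58, GLG1 at 0.55 and the osmotic stress factor NFAT5 at 0.46. Chromosome 7 from 100 to 160 Mb had 0.35 (262 of 416 higher) and TC4-2A at 0.37 over T-REx. The remaining 4 were chromosome 18 from 60 to 80 Mb (0.41), chromosome 1 from 0 to 20 Mb (0.36), chromosome 5 from 20 to 60 Mb (0.29) and chromosome 21 from 0 to 40 Mb (0.26). SMN1 and SMN2 lie in none of the stretches. Of the 18 genes tested around them on chromosome 5, 3 (16.7%) were higher and 5 (27.8%) lower, beside 17.6% and 17.8% of all genes tested. POLK at -0.61 was the farthest. Only 1 of the 18 was higher without TC4-2A replicate 2 or TL4-2A replicate 3.

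**Figure D3:**
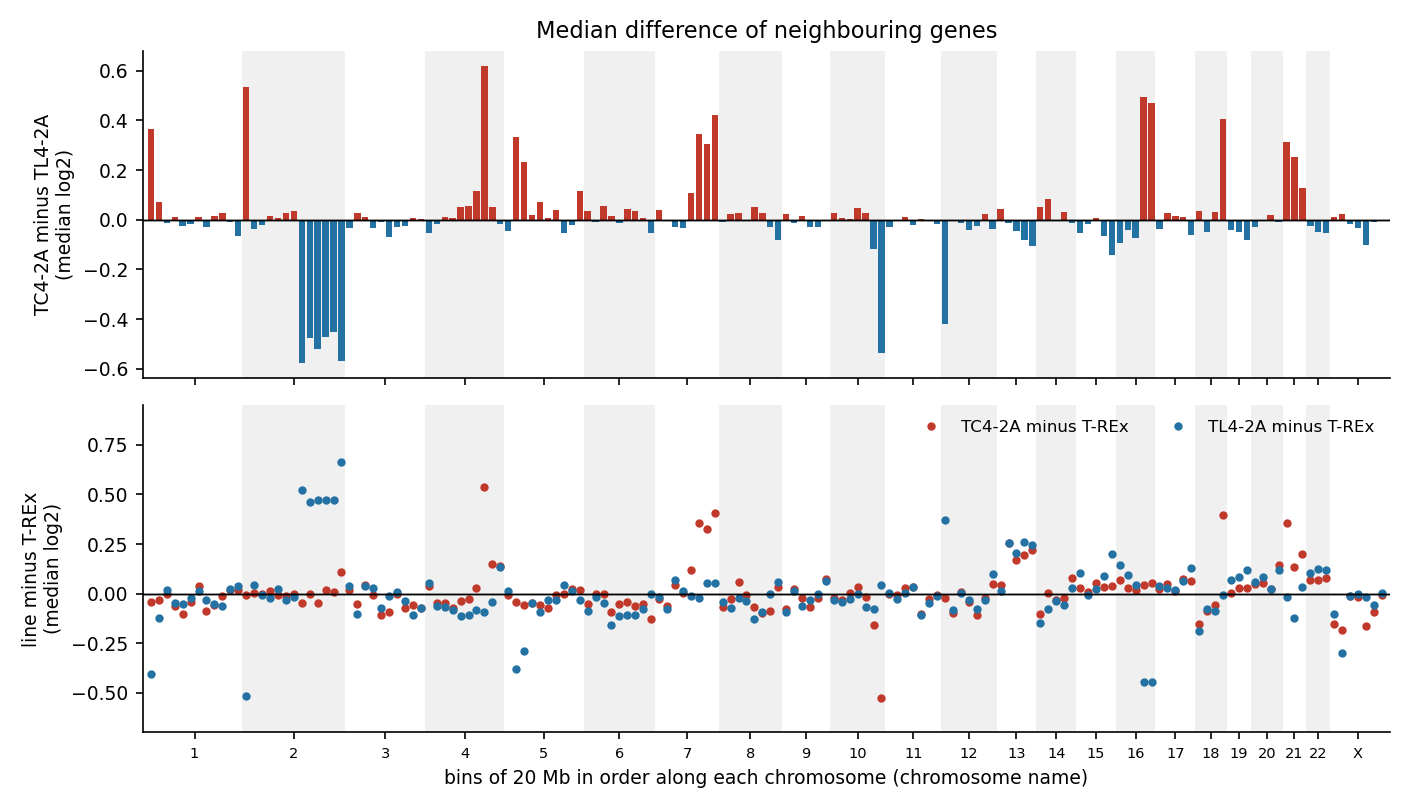
Median log2 difference of the genes tested in each 20 Mb bin with at least 20 genes, in order along the chromosomes, for TC4-2A minus TL4-2A (upper panel, bars, red above 0 and blue below) and for each line minus T-REx (lower panel, points). Bars past 0.2 mark the 11 stretches, and the points below show that TL4-2A leaves the T-REx level on chromosomes 1, 2, 5, 12 and 16 and TC4-2A on chromosomes 4, 7, 10 and 18.

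Genes of known function were grouped into 39 lists, drawn up with earlier results of these data known. Each list is described by how many of its genes tested were higher and lower, beside 17.6% and 17.8% of all genes, and by its median difference, beside 0.00. All genes include noncoding RNAs and pseudogenes, which were called less often. Of protein-coding genes 21.5% were higher and 21.1% lower, and of genes of at least 6 log2 CPM 50.9% were called. Lists of protein-coding or abundant genes are to be read beside these shares too. The lists do not stand for independent genes, and the stretches put members of some of them on one side. Counts without the stretches are therefore added for lists in which they change the balance of higher and lower genes, and for some others. These counts are not free of position, since some bins outside the stretches also leaned to one side. On chromosome 21 from 40 to 60 Mb 43.7% of genes were higher and 7.04% lower. On chromosome 10 from 100 to 120 Mb 16.6% were higher and 37.1% lower.

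The group with the most one-sided higher calls, apart from the genes the study picked for qPCR, was that of ATF4 and its targets. ATF4 is the transcription factor of the integrated stress response, made when amino acids are short or the kinases of eIF2 are active, and its targets import and synthesise amino acids. Of 32 genes tested, 22 (68.8%) were higher in TC4-2A cells, with a median of 0.27. None was lower by edgeR's quasi-likelihood test, 0 were lower at an unadjusted p under 0.05, and 0 by DESeq2. Outside the stretches 21 of 31 were higher. Against T-REx cells the median was 0.01 for TC4-2A and -0.24 for TL4-2A, so it was mostly the linear line that was low.

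Among the transporters, SLC7A5 was described above, and SLC7A11, the cystine importer, had 98.7, 108 and 109 CPM in the TC4-2A libraries, 74.3, 76.2 and 74.2 in the TL4-2A libraries and 64.9, 61.1 and 67 in the T-REx libraries and a difference of 0.49 ± 0.04. Here TC4-2A was the higher line and TL4-2A was nearer the parent. Among the enzymes, ASNS, asparagine synthetase, had 15, 15.8 and 15 CPM in the TC4-2A libraries, 11.9, 11.4 and 10.2 in the TL4-2A libraries and 12.1, 11.1 and 11.6 in the T-REx libraries and a difference of 0.45 ± 0.08. MTHFD2 of mitochondrial folate metabolism had 249, 249 and 243 CPM in the TC4-2A libraries, 196, 203 and 191 in the TL4-2A libraries and 225, 225 and 226 in the T-REx libraries, with T-REx between the lines. ALDH1L2 at 0.77, PCK2 at 0.59, PSPH at 0.39, CTH at 0.37, SHMT2 at 0.34 and PSAT1 at 0.27 were higher as well. STC2, a secreted glycoprotein, had 115, 111 and 113 CPM in the TC4-2A libraries, 78.5, 77.1 and 80.5 in the TL4-2A libraries and 118, 117 and 113 in the T-REx libraries, with only TL4-2A low. Of the factors, ATF4 itself was at 0.26, with 553, 539.6 and 554 CPM in the TC4-2A libraries, 447, 472 and 450.4 in the TL4-2A libraries and 457, 491 and 477 in the T-REx libraries, and ATF5 at 0.51. The stress regulators DDIT4 at 0.47, CHAC1 at 0.49, SESN2 at 0.29 and the scarce NUPR1 at 1.75 were higher too. ATF3 at 0.03, TRIB3 at -0.02, DDIT3 (CHOP) at -0.07 and PHGDH at 0.05 were not called. PYCR1 was not called either: it was near 0 in both derived lines and passed the expression filter only through the T-REx libraries.

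ATF4 binds a C/EBP-ATF composite element. The letters TGATGNAA, searched on both strands, were found in 6 of the 25 promoters of these genes that were matched (24%), and in 3.67% of all 27305 promoters of 250 bases before to 50 after the start site (RefSeq, GRCh38.p14). Of the genes tested 1.69% had a match. The 6 were ATF3, ASNS, SLC3A2, SLC7A1, CHAC1 and FGF21, of which ATF3 and FGF21 were not called. The windows around the match in ASNS (chr7:97872439-97872506, minus strand) and CHAC1 (chr15:40953232-40953299, plus strand, match on the opposite strand) are shown with the match in capitals, as examples from genes that were higher in TC4-2A cells. A match is a description of the letters and not a bound site.
ASNS: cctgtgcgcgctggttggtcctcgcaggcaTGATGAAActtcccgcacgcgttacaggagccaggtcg
CHAC1: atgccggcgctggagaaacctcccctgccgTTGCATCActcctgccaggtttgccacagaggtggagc

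Chaperones and folding enzymes of the endoplasmic reticulum (ER), which the unfolded protein response raises when unfolded proteins gather there, went the other way. Of 28 genes tested, 21 (75%) were lower and 3 higher in TC4-2A cells, at a median of -0.25. Outside the stretches 21 of 25 were lower and 2 higher. The median against T-REx cells was -0.04 for TC4-2A and 0.20 for TL4-2A. HSPA5 (BiP), the main chaperone of the ER, had 503, 492 and 491 CPM in the TC4-2A libraries, 676, 682 and 683 in the TL4-2A libraries and 481, 494 and 514 in the T-REx libraries and a difference of -0.46 ± 0.03 (edgeR quasi-likelihood adjusted p = 1.98e-16). The TL4-2A libraries were high, and the other lines overlapped. HSP90B1 (GRP94), the Hsp90 of the ER, had 1221, 1194 and 1217 CPM in the TC4-2A libraries, 1539, 1615 and 1597 in the TL4-2A libraries and 1401, 1440.3 and 1524 in the T-REx libraries, with T-REx between the lines.

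Further members kept the direction at similar sizes. The cochaperones DNAJB11 at -0.49 and DNAJC3 at -0.40, the trophic factor MANF at -0.42, CRELD2 at -0.40, HYOU1 at -0.30, the disulfide isomerases PDIA3 at -0.29 and P4HB at -0.26, calreticulin (CALR) at -0.27 and the transcription factor XBP1 at -0.18 were lower. CALR had 1292, 1239 and 1215 CPM in the TC4-2A libraries, 1490.5, 1537 and 1505 in the TL4-2A libraries and 1208, 1252 and 1252 in the T-REx libraries. ERP44, which retains proteins in the early secretory pathway, stood apart. It had 23.5, 22.1 and 24.9 CPM in the TC4-2A libraries, 55.6, 56.8 and 56.7 in the TL4-2A libraries and 56.4, 57.2 and 57 in the T-REx libraries, a difference of -1.26 ± 0.05, with only TC4-2A low. Higher in TC4-2A cells were PDIA6 at 0.35, which lies in the chromosome 2 stretch from 0 to 20 Mb, the oxidase ERO1A at 0.20 and the sensor ATF6 at 0.15. PDIA4, DNAJB9 and the sensors ERN1 and EIF2AK3 were not called.

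The ER stress response element was searched as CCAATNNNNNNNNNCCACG on both strands. It was found in 7 of the 27 promoters matched for these genes (25.9%) and in 22 of all 27305 promoters (0.0806%), 14 of them of genes tested. The 7 were ERO1B, CANX, HSPA5, HSP90B1, CALR, XBP1 and CRELD2, each lower in TC4-2A than in TL4-2A cells. So were 21 of the 28 genes (75%) of the whole list, and a link between the element and the direction was not tested. Windows of 3 of them are shown with the matches in capitals, HSPA5 (chr9:125241361-125241439, minus strand), HSP90B1 (chr12:103930186-103930264, plus strand, the first of 2 matches) and CRELD2 (chr22:49918524-49918602, plus strand, match on the opposite strand). Sequences are those of RefSeq on GRCh38.p14.
HSPA5: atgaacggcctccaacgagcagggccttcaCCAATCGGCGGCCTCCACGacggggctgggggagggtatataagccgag
HSP90B1: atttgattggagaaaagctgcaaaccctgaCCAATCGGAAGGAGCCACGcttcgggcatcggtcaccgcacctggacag
CRELD2: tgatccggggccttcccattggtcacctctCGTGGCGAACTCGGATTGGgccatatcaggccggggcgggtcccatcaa

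**Figure D4:**
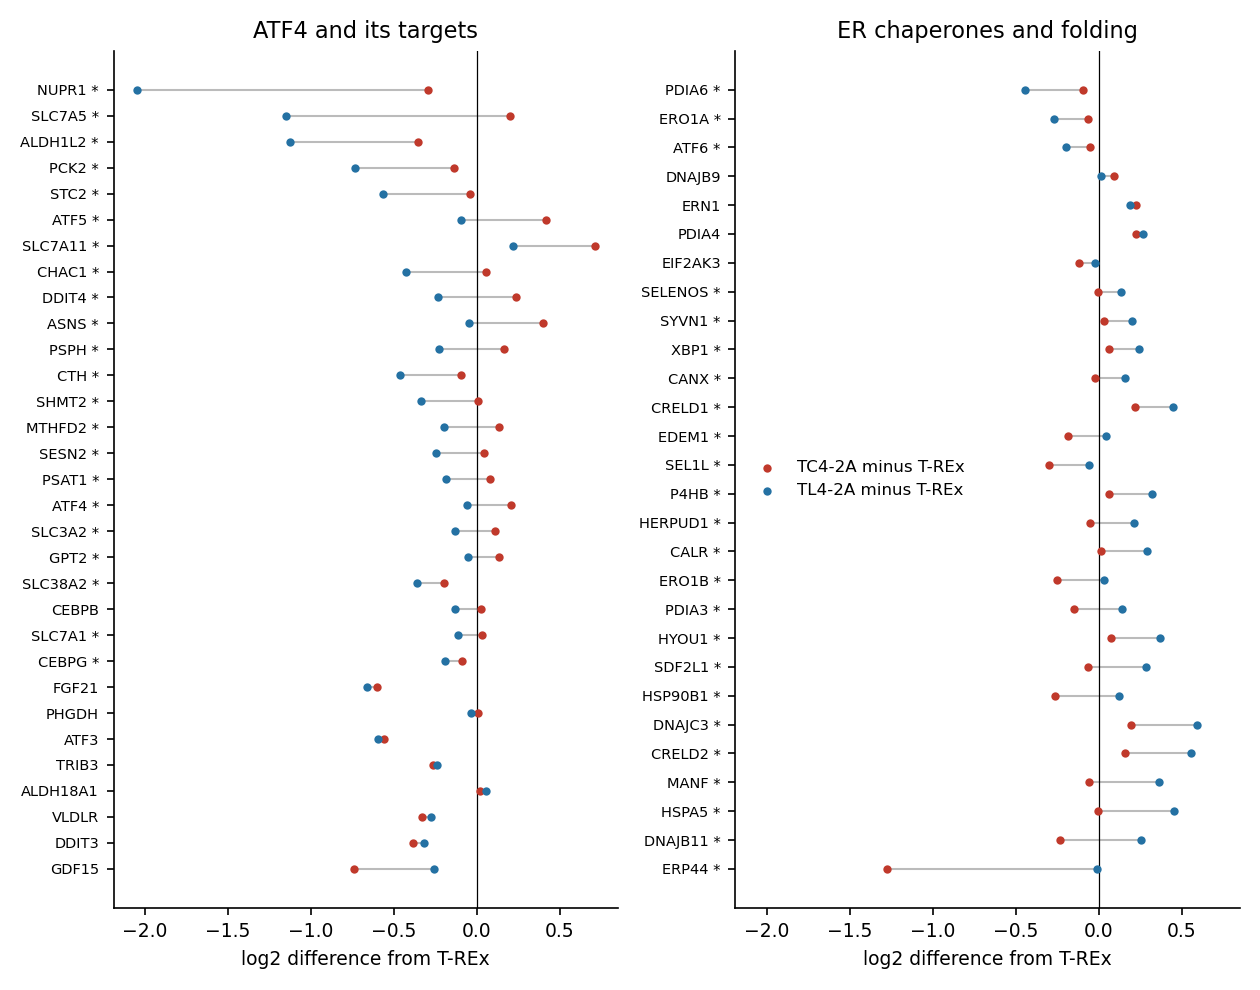
Log2 difference of TC4-2A (red) and TL4-2A (blue) from T-REx cells for ATF4 and its targets (left, PYCR1 left out because it was near 0 in both lines) and for ER chaperones and folding genes (right), ordered by the direct difference, with called genes marked by an asterisk. On the left the TL4-2A points lie left of the TC4-2A points for the called genes, and on the right they lie right of them for the 21 genes called lower, with ERP44 away from T-REx in TC4-2A cells alone.

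Genes of cholesterol synthesis and uptake were mostly lower in TC4-2A cells, 15 of 25 tested (60%), with 4 higher and a median of -0.16. The sterol carrier STARD4 at -0.38 and the transcription factor SREBF2 at -0.31 were among those lower. INSIG1 at 0.37 and MVD at 0.39 were higher, both within stretches, and MSMO1 and SC5D at 0.28 and 0.13 outside them, where 2 of 22 were higher and 14 lower. In glycolysis 7 of 22 genes were higher and 6 lower, and the farthest were the glucose transporter SLC2A3 at -0.99 and ENO1 at 0.53, in the stretches on chromosomes 12 and 1. Of the 6 lower genes 5 lie in stretches, and outside them 6 of 16 were higher and 1 was lower. Without TC4-2A replicate 1 the number higher was 4. Of 39 nuclear genes of respiratory complexes 10 were higher and 6 lower, and outside the stretches 7 of 32 were higher and 2 lower.

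Cytosolic ribosomal proteins were higher in TC4-2A cells by small amounts where they were called. Of 79 tested, 39 (49.4%) were higher and 2 lower, with a median of 0.08, and the number higher ranged from 24 to 48 over the alternatives, 24 being without TC4-2A replicate 1. Their summed level was 47291 to 50172 CPM over the TC4-2A, 44508 to 46738 over the TL4-2A and 44502 to 47220 over the T-REx libraries. Members with larger differences lie in stretches. RPS7 had 531, 505 and 491 CPM in the TC4-2A libraries, 304, 322 and 297 in the TL4-2A libraries and 459, 477 and 459.5 in the T-REx libraries. RPL13 had 993, 929 and 939 CPM in the TC4-2A libraries, 607, 643 and 624 in the TL4-2A libraries and 906, 986 and 933 in the T-REx libraries. Both were low in TL4-2A cells. RPS3A had 652, 636 and 665 CPM in the TC4-2A libraries, 399, 439 and 411 in the TL4-2A libraries and 412, 444 and 411 in the T-REx libraries, and was high in TC4-2A cells. RPL37A, one of the 2 lower genes, was at -0.54. Outside the stretches 34 of 73 were higher and 1, RPL41 at -0.08, was lower. Factors of ribosome biogenesis had 19 of 42 higher and 7 lower, and outside the stretches 14 of 32 higher and 2 lower. NOB1 at 0.74 and NAF1 at 0.71 were highest and NOP2 at -0.57 lowest. NOB1 and NOP2 lie in the stretches on chromosomes 16 and 12, and 5 of the 7 lower genes lie in stretches. Spliceosome proteins had 9 of 37 higher and 9 lower, with SF3B3 at 0.73 and SF3B1 at -0.54, both in stretches. The number lower ranged from 4 to 9 over the alternatives, with 4 without an expression filter or without TC4-2A replicate 2, TC4-2A replicate 3 or TL4-2A replicate 2, and 5 without TL4-2A replicate 3.

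Matrix and adhesion genes had some of the widest gaps. Of 32 collagen chains tested, 16 (50%) were lower and 3 higher in TC4-2A cells, at a median of -0.27, and outside the stretches 13 of 27 were lower. With DESeq2 or without TC4-2A replicate 2 only 1 was higher. Besides COL2A1, the lower chains included COL24A1 at -1.82, COL7A1 of anchoring fibrils at -1.51, COL8A1 at -1.26 and COL17A1 at -1.15. COL14A1 had 112, 113 and 113 CPM in the TC4-2A libraries, 162, 159 and 159 in the TL4-2A libraries and 163, 156 and 158 in the T-REx libraries, with TC4-2A low. COL7A1 had 2.45, 2.99 and 2.79 CPM in the TC4-2A libraries, 8.60, 8.18 and 6.64 in the TL4-2A libraries and 3.13, 2.69 and 2.56 in the T-REx libraries, with TL4-2A high. The basement membrane chains COL4A3 at -0.74 and COL4A4 at -0.84 are neighbours in the chromosome 2 stretch. COL9A2 at 1.34 and COL28A1 at 1.13 were higher. Laminins and other matrix glycoproteins went both ways, with 9 of 29 higher and 10 lower. Perlecan (HSPG2) at 0.64 was higher, and MATN3 at -1.81, tenascin TNC at -0.52 and fibrillin FBN1 at -0.51 lower.

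Receptors for the matrix had 4 of 23 genes higher and 8 lower, at a median of -0.08, and outside the stretches 3 of 18 higher and 5 lower, at 0.02. CD44, the receptor for hyaluronan, had 13.6, 13.1 and 13.2 CPM in the TC4-2A libraries, 35.9, 33.7 and 38.2 in the TL4-2A libraries and 33.8, 34.8 and 33.5 in the T-REx libraries and a difference of -1.43 ± 0.06, with only TC4-2A low. DDR2, a collagen receptor, was at -1.07, and ITGA4 at -0.61, ITGA6 at -0.50 and ITGAV at -0.41 were lower too. The 3 integrin genes lie in the chromosome 2 stretch from 140 to 260 Mb, whose median was -0.49. Cadherins and protocadherins outside the gene clusters had 7 of 23 on either side, at a median of 0.05, and outside the stretches 6 of 20 higher and 7 lower, at -0.05. With DESeq2 or only genes of at least 10 counts in every library 4 were higher. P-cadherin (CDH3) had 32.7, 30.3 and 30 CPM in the TC4-2A libraries, 13.4, 12.3 and 11.8 in the TL4-2A libraries and 41.6, 35.5 and 36.1 in the T-REx libraries and a difference of 1.31 ± 0.07, with TL4-2A low. CELSR3, of planar cell polarity, had 39.2, 44.3 and 37.2 CPM in the TC4-2A libraries, 19.4, 20 and 16.4 in the TL4-2A libraries and 19.6, 18 and 17.8 in the T-REx libraries, with TC4-2A high. PCDH17 at 2.13, CDH22 at 1.47 and PCDH10 at 1.38 were higher, and FAT4 at -0.46 and CDH4 at -0.45 lower.

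Genes of neurons were called in both directions. Axon guidance ligands and receptors had 10 of 61 higher and 22 lower (36.1%). The ephrin receptor EPHA4 had 57.2, 62.3 and 59.1 CPM in the TC4-2A libraries, 99.8, 95.4 and 95.6 in the TL4-2A libraries and 65.4, 68 and 63.7 in the T-REx libraries and a difference of -0.70 ± 0.04, with TL4-2A high. EPHA2 had 40.1, 39.7 and 37.2 CPM in the TC4-2A libraries, 23.2, 24.9 and 24.3 in the TL4-2A libraries and 53.6, 53.2 and 51.6 in the T-REx libraries, with both lines under the parent. EPHA5 was at -3.21, SLIT3 at -0.86 and EPHB1 at -0.77, while the ephrin EFNA1 at 1.13 and DRAXIN at 1.05 were higher. Neuronal adhesion molecules had 5 of 25 higher and 10 lower, led by LSAMP. Contactin CNTN1 had 29.5, 30.4 and 29.2 CPM in the TC4-2A libraries, 62.8, 60.1 and 66.3 in the TL4-2A libraries and 66.2, 60.7 and 59.9 in the T-REx libraries, with TC4-2A low, and NCAM1 was at -0.40. Markers of mature neurons summed to 52.8 to 58.4 CPM in TC4-2A cells against 59.5 to 64.4 in TL4-2A cells, with 1 of 5 tested called on either side, RBFOX3 at 0.49 (not called without TC4-2A replicate 1 or TL4-2A replicate 2) and GAD1 at -0.45.

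Cytoskeletal genes were called in both directions too. Of 28 tubulins and microtubule-associated proteins 11 were higher and 5 lower. MAP1A, which stabilises microtubules in neurons, had 9.49, 10 and 10.3 CPM in the TC4-2A libraries, 40.5, 37.5 and 41.4 in the TL4-2A libraries and 23.6, 23.4 and 24.9 in the T-REx libraries, with the parent between the lines. MAP2 of dendrites was at -1.29 and STMN4 at -1.04. The neuronal tubulin TUBB3 at 1.34, TUBB2A at 0.55 and stathmin (STMN1) at 0.56 were higher. MAP2 and TUBB3 lie in the stretches on chromosomes 2 and 16, and outside the stretches 10 of 25 genes were higher and 4 lower. Intermediate filaments had 7 of 16 higher and 3 lower. Keratin KRT19 had 58.8, 49.6 and 55.1 CPM in the TC4-2A libraries, 22.5, 23.5 and 25.8 in the TL4-2A libraries and 85.1, 91.1 and 88.8 in the T-REx libraries and a difference of 1.19 ± 0.06, peripherin (PRPH) was at 1.04, nestin (NES) at 0.62 and vimentin (VIM) at -0.13.

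Of 39 Wnt ligands, receptors and feedback genes 14 (35.9%) were lower and 2 higher, with a median of -0.12, and outside the stretches 10 of 34 were lower. With DESeq2, with at least 10 counts in every library or without TC4-2A replicate 1, TC4-2A replicate 2 or TL4-2A replicate 2, only 1 was higher. The secreted antagonist SFRP1 had 17.8, 18.7 and 18.5 CPM in the TC4-2A libraries, 38.9, 35.3 and 34.3 in the TL4-2A libraries and 33, 35 and 33.2 in the T-REx libraries, with TC4-2A low. The coreceptor LRP6 had 187, 196 and 195 CPM in the TC4-2A libraries, 273, 266 and 279.5 in the TL4-2A libraries and 202, 204 and 206 in the T-REx libraries, with TL4-2A high, and the transcription factor TCF7L2 was at -0.64. WNT11 at -0.69 and WNT5B at -0.66 were lower and WNT4 at 0.80 and WNT3 at 0.40 higher. HOX genes, which give position along the body axis, had 18 of 37 lower (48.6%) and 1 higher (2 without TC4-2A replicate 3), HOXA11 at 0.33, with medians against T-REx of 0.08 for TC4-2A and 0.31 for TL4-2A. HOXD3 had 18.7, 18.2 and 18.4 CPM in the TC4-2A libraries, 31.9, 32.1 and 30.4 in the TL4-2A libraries and 17.9, 18.4 and 18.7 in the T-REx libraries, with TL4-2A high. Outside the stretches, one of which holds the HOXD cluster, 12 of 28 were lower.

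The BEX and TCEAL genes, a family of small adapter proteins side by side on the X chromosome, had 6 of 9 tested lower and a median of -0.67. None was higher by edgeR's quasi-likelihood test, 0 at an unadjusted p under 0.05 and 0 by DESeq2, and 6 were lower in every alternative run. BEX3 had 140.0, 135 and 137 CPM in the TC4-2A libraries, 219, 229 and 214 in the TL4-2A libraries and 205, 217 and 210.1 in the T-REx libraries. BEX2 had 10.9, 10.2 and 11.7 CPM in the TC4-2A libraries, 20.4, 23.1 and 19.9 in the TL4-2A libraries and 22.9, 21.5 and 24.1 in the T-REx libraries. TC4-2A alone was low in both. TCEAL8 at -0.77, TCEAL9 at -0.68, BEX4 at -0.67 and TCEAL3 at -0.55 made up the 6. BEX1 at -0.01, TCEAL1 at 0.03 and TCEAL4 at -0.04 were not called. Of 17 oncofetal RNA regulators 4 were higher and 8 lower, among the former LIN28B at 0.24 and among the latter DIS3L2, which degrades let-7 precursors, at -0.77. Imprinted genes and their relatives had 4 of 17 on either side, with MEST at -2.54 the lowest. Polycomb and DNA methylation enzymes had 6 of 33 higher, with EZH2 at 0.31, and 10 lower, with 5 to 11 lower over the alternatives and 5 without TL4-2A replicate 1.

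Of 34 genes of DNA replication and the G1/S transition 14 (41.2%) were higher and 6 lower. RRM2 had 280.1, 289 and 282 CPM in the TC4-2A libraries, 162, 171 and 168 in the TL4-2A libraries and 259, 274 and 270.3 in the T-REx libraries. The licensing factor CDT1 was at 0.63, and both lie in stretches, as does cyclin CCND2 at -0.48. Outside them PCNA at 0.26 was higher and E2F1 at -0.20 lower. Mitotic genes had 4 of 29 higher and 6 lower, all under 0.3 in size but MKI67, and 3 lower without an expression filter. Of 22 p53 targets 5 were on either side, and RPRM was the only one beyond 0.4 in size. Without TC4-2A replicate 3, TL4-2A replicate 1 or TL4-2A replicate 2, 3 of them were lower. Immediate early genes and feedback genes of ERK had 8 of 32 higher and 5 lower. MYC had 202, 194 and 191 CPM in the TC4-2A libraries, 122, 121 and 130.2 in the TL4-2A libraries and 159, 162 and 166 in the T-REx libraries and a difference of 0.65 ± 0.03, with T-REx between the lines, and JUNB was at 0.39, while PHLDA1 at -0.64 and DUSP6 at -0.50 were lower.

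Sensors of foreign RNA and interferon-stimulated genes, which RNA brought into a cell can set off, had 3 of 25 tested higher and 6 lower, and outside the stretches 1 of 21 higher and 4 lower. OAS3, an oligoadenylate synthetase, had 12.1, 12.4 and 12.6 CPM in the TC4-2A libraries, 22.9, 22.5 and 21.8 in the TL4-2A libraries and 18.3, 19 and 15.3 in the T-REx libraries, with the parent between the lines. The helicase sensor IFIH1 (MDA5) at -0.31 and the adapter MAVS at -0.22 were lower, and ISG15 at 0.50 and MX1 at 0.54 higher. IFNB1, OAS1, OAS2, OASL, IRF7, IFI44 and MX2 did not pass the expression filter. Makers and handlers of circular RNA had 3 of 23 higher and 6 lower. RBM20, a splicing factor of heart muscle, had 58, 55.6 and 51.2 CPM in the TC4-2A libraries, 99.7, 92.3 and 91 in the TL4-2A libraries and 77.9, 75.7 and 76.6 in the T-REx libraries, ESRP2 was at 0.58 and ILF2 at 0.14, while DHX9 at 0.03 was not called.

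Genes that the study measured by qPCR had been chosen on these samples against T-REx cells, so their direction is not independent evidence here. In the list of higher genes 20 of 21 were also above TL4-2A cells, with a median of 0.53. By edgeR's quasi-likelihood test 0 were lower, as at an unadjusted p under 0.05 and by DESeq2. IQGAP2 at -0.02 was not called. Of the 20, 11 lie in the stretches, most of them on chromosomes 4 and 7. Outside the stretches were CELSR3 at 1.11 and RAC3 at 0.75. In the list of lower genes 15 of 17 were also below TL4-2A cells, with PCDH19, SAMD5 at -1.76, CD44, ERP44, OR51E2 at -1.17 and CNTN1 beyond 2-fold. NDRG1 and TUBB2B were higher than in TL4-2A cells. TUBB2B had 34.7, 35.5 and 34.3 CPM in the TC4-2A libraries, 28.2, 27.9 and 27 in the TL4-2A libraries and 59.5, 60.9 and 57.8 in the T-REx libraries, so that, as with NDRG1, the line of the linear RNA was lower still.

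**Figure D5:**
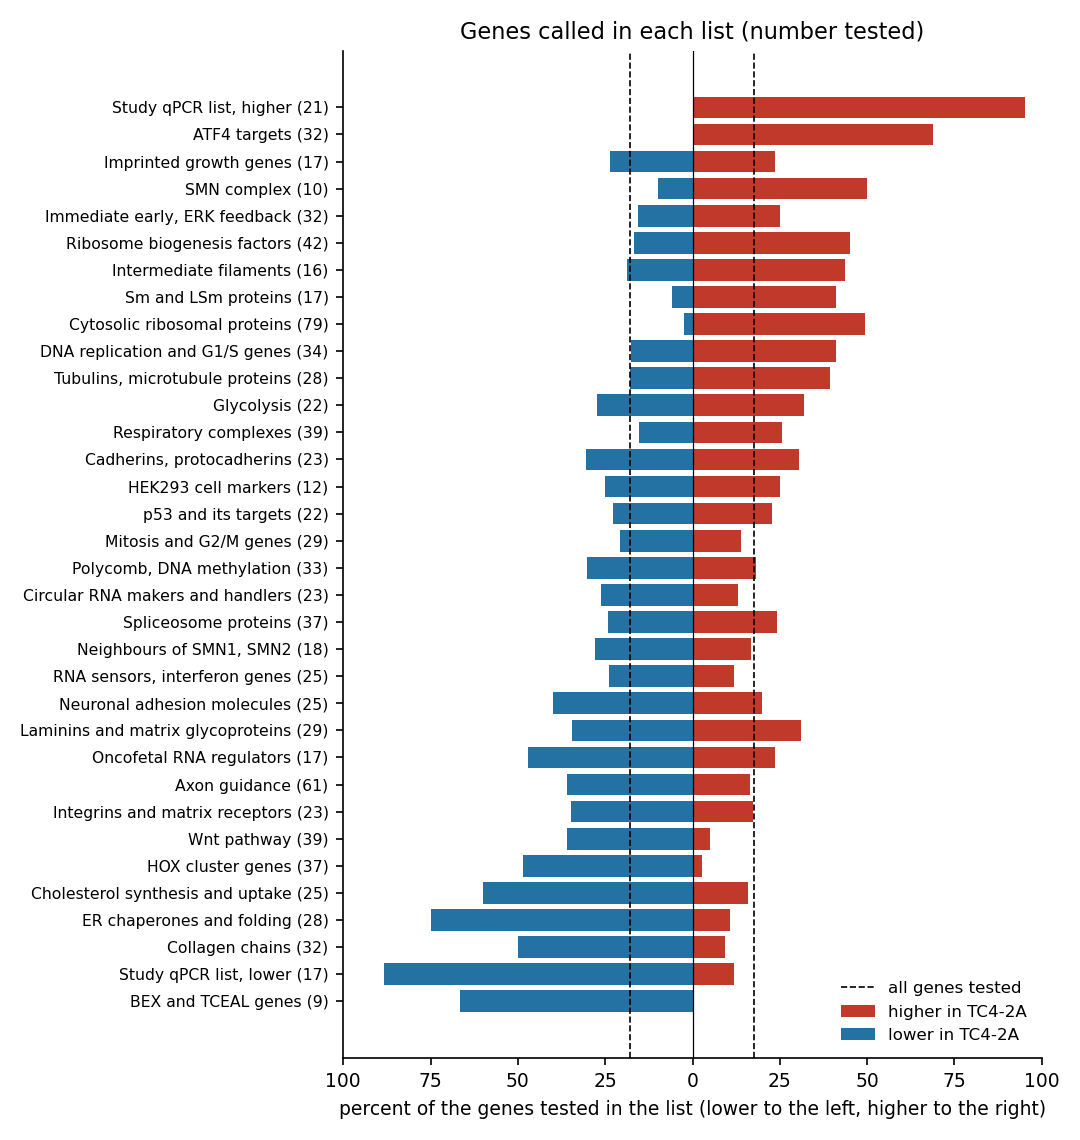
Share of the genes tested in each list that were higher (red, right) or lower (blue, left) in TC4-2A than in TL4-2A cells, ordered by the median difference of the list and without the marker lists of other cell types, with dashed lines at the 17.6% and 17.8% of all genes. ATF4 targets have 68.8% higher and none lower, ER chaperones 75% lower, and many lists have both kinds.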

How the data were processed

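RNA of the parental, circular and linear lines was sequenced, 3 libraries a line, all in Dox. Per the paper's methods, the authors depleted ribosomal RNA, aligned directional paired-end reads to GRCh38 with HISAT2 and counted them per gene of Gencode v33 with featureCounts, and the deposited values are these raw counts. The sources used here give neither tool versions nor how strand and multiply matched reads were handled in counting. The authors' tables of log2 fold changes and p-values against T-REx cells were not used, and 3 damaged lines of the count table were left out.

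Genes were filtered with filterByExpr, scaled by TMM and fitted over the 9 libraries with the quasi-likelihood test (2-sided) of edgeR 4.0.16 in R 4.3.3, which pools the spread of the 3 lines. Genes with a Benjamini-Hochberg p under 0.05 were called. DESeq2 1.42.0, RLE scaling, other filters, the 6 libraries alone, a replicate block and leaving out each library were alternatives. The scripts were tested on simulated data. Symbols and positions were taken from Gencode v44, and promoters from RefSeq. Totals of 16561680 to 21491977 counts limit the precision of scarce genes.

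Named were the 12 highest and 12 lowest protein-coding genes called, the 5 highest and lowest long noncoding RNAs, all with at least 1 log2 CPM on average and lines that did not overlap, the 8 highest and lowest genes of at least 6 log2 CPM, the 4 smallest p-values of each list, the 4 most abundant genes of the 3 highest and 3 lowest bins, and every gene of the SMN complex and qPCR lists. Some genes that this rule names are not reported here. Other genes, including those near silent in one line, were named after their values were seen. Members and lists were chosen with earlier results of these data known.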

Additional observations from a re-analysis of the deposited data

Results flagged for a closer look

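For 25 of the genes named the lines departed from T-REx cells in opposite directions, each at an adjusted p under 0.05, and the direct test between the lines (edgeR's quasi-likelihood test) was called at more than 2-fold. Both departures are measured against the same 3 T-REx libraries, so they are not independent. The log2 differences of TC4-2A minus TL4-2A were as follows. Above the parent in TC4-2A and below it in TL4-2A cells were MAP7D2 (5.79), EEF1A2 (1.72), TSC22D3 (1.59), CCDC102B (1.44), SLC7A5 (1.35), SCOC-AS1 (1.34) and KDM7A-DT (1.17).

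The reverse held for 18 genes. Among protein-coding genes these were COL2A1 (-7.70), LSAMP (-4.91), RPRM (-4.88), PCDH19 (-4.23), AMOT (-3.58), ABCA8 (-3.03), HNMT (-2.86), FER1L5 (-2.76), TRANK1 (-2.53), ZNF90 (-2.52), RYR2 (-2.39), MAP1A (-2.0) and MAP2 (-1.29). Among noncoding RNAs they were LINC00632 (-3.22), RN7SL3 (-2.15), BCYRN1 (-1.80), LINC02641 (-1.53) and IRS4-AS1 (-1.44). For LSAMP the TC4-2A and T-REx libraries overlapped at low levels, so its departure in TC4-2A cells is uncertain. The departures were often uneven: against T-REx cells PCDH19 was at -4.02 in the circular and 0.21 in the linear line, and MAP7D2 at 0.22 and -5.57, whereas MAP1A was at -1.27 and 0.73 and RPRM at -3.10 and 1.78.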

How the results depend on the processing

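For TC4-2A against TL4-2A cells, 5511 to 6953 genes were called over the alternatives that kept the genes of the stretches. The number of genes called higher in TC4-2A ranged from 2721 to 3515, that of genes called lower in TC4-2A from 2790 to 3492, and 240 to 762 were beyond 2-fold. Where each library had to hold 10 counts or more, 240 were beyond 2-fold, 99 higher and 141 lower, as fewer scarce genes were tested. With DESeq2 410 genes were beyond 2-fold, and without an expression filter 762. Of the 223 named genes 220 kept direction and call with DESeq2, 222 with RLE scaling, 223 without a filter and 223 with the 6 libraries alone, and 219 to 223 when 1 library was left out. Those that changed direction were not called in the first place: the log2 difference of DDX20 was -0.00063 with DESeq2, -0.00052 with RLE scaling and -0.025 to 0.024 when 1 library was left out, and in the last case the log2 difference of SMN2 was -0.015 to 0.025, the log2 difference of GEMIN7 -0.030 to 0.074 and the log2 difference of IQGAP2 -0.039 to 0.0010. The cause was not tested. The difference of the SMN1 and SMN2 sum stayed between 30.9 and 33.8 CPM.

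The replicate numbers gave no clear sign of pairing. Libraries with the same number had deviations that correlated at -0.068 to 0.107, and those with other numbers at -0.129 to 0.0893. Not every library correlated best with its own number. With 3 libraries a line this is a weak check, and handling in numbered batches was not tested. A fit with the number as a replicate block called 6894 genes for TC4-2A against TL4-2A cells, with 3417 genes called higher in TC4-2A and 3477 genes called lower in TC4-2A, with 566 beyond 2-fold, 260 higher and 306 lower, and changed no call of the 223 named genes. Without the stretches of neighbouring genes, an alternative chosen after seeing the data, 5353 of 17171 genes were called, 2511 higher and 2842 lower, and 437 were beyond 2-fold. At this depth the intervals of near-silent genes stay wide, as for GSTP1.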

Other observations

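By chromosome, the median difference was highest on chromosome 21, at 0.23, where 103 of 231 genes tested were higher in TC4-2A cells, and chromosome 7 followed at 0.15. It was lowest on chromosome 2, at -0.13, where 493 of 1310 genes were lower. By kind of gene, 74 of 1487 pseudogenes were higher and 138 lower, whereas 2941 of 13668 protein-coding genes were higher and 2887 lower. The median length of the genes called higher was 26.7 kb and of those called lower 38.6 kb, against 22.5 kb over all genes tested. No explanation of these values was tested.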
